A study of Mus musculus with 6 samples.

Results

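The genes described here are the cholesterol and fatty acid synthesis genes of mouse embryonic stem cells. They are 30 genes named by symbol, of 24984 in the count tables: 18 enzymes of the sterol route, 8 enzymes of fatty acid synthesis, and 4 genes of sterol sensing and transport. Expression was measured by RNA-seq of ribosome-depleted total RNA in E14TG2a, a male mouse embryonic stem cell line, grown in N2B27, a defined medium without serum. There were 2 libraries for each of 3 groups: cells with unaltered METTL3 (WT), cells in which Cas9 disrupted METTL3 (KO), and cells into which Cas9 and homology-mediated end joining brought the METTL3 D395A substitution (D395A). METTL3 is the catalytic subunit of the enzyme that writes N6-methyladenosine on RNA, and D395A alters its catalytic motif. All groups share the parent line, and no other gene or agent is named as altered. The labels give 1 knockout line and 1 mutation line, do not say whether these are clones, and do not say whether the 2 libraries of a group are separate cultures. The p-values therefore measure only the spread between these libraries, which may be technical.

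Cells make cholesterol from acetyl-CoA. The mevalonate pathway builds isoprenoid units, squalene is joined from them and closed into lanosterol, and a last series of enzymes turns lanosterol into cholesterol. Fatty acid synthesis starts from the same acetyl-CoA, which ATP citrate lyase releases in the cytosol, and goes on through chain building, elongation and desaturation. The transcription factors SREBP1 and SREBP2, encoded by Srebf1 and Srebf2, are held in the endoplasmic reticulum by INSIG proteins when sterols are plentiful. When sterols run low they are cleaved and enter the nucleus, where SREBP2 is best known for switching on the sterol genes and SREBP1 the fatty acid genes.

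Gene counts totalled 22859491 to 40476809 per library, so a single count equalled 0.0246 to 0.0426 CPM (counts per library total, that total scaled by trimmed means). Mettl3 itself stood at 28.5 and 31.6 CPM in WT, 7.82 and 6.17 in KO, with 21.1 and 23.4 in D395A. The labelled cell type was checked by its markers: 9 of 9 pluripotency markers exceeded 1 CPM in each group, and none was at 0. Their summed level was 3531 to 3556 CPM in WT, 4336 to 4388 in KO and 2321 to 2448 in D395A. Of 8 primitive endoderm markers, 5, 3 and 6 exceeded 1 CPM in WT, KO and D395A, none was at 0 in all libraries, and the sum was 13.8 to 14.1, 26.6 to 32.4 and 43.1 to 46.4 CPM. The 7 neural markers summed to 86.7 to 91 CPM in WT, 56.4 to 56.5 in KO and 64.3 to 64.6 in D395A, with 5, 4 and 7 over 1 CPM. The 5 mesoderm markers summed to 5.54 to 8.92, 2.3 and 3.16 to 3.32 CPM, and no marker of either list was at 0 in all libraries. The 7 trophoblast markers summed to 60.6 to 61.6 CPM in WT, 52.4 to 53.8 in KO and 62.2 to 64.8 in D395A. Of these, 2, 4 and 4 exceeded 1 CPM. The 6 fibroblast markers summed to 5.95, 7.35 to 7.39 and 2.83 to 3.11 CPM, with 2 over 1 CPM in each group. The 6 hepatocyte markers and 5 adipocyte markers, from cell types rich in these pathways, summed to under 1 CPM in every library, and Fabp4 was at 0 in all 6. The part of these marker differences in the results below was not tested.

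The sterol and fatty acid arms are given apart. Fold changes are log2 values ± SE from edgeR's quasi-likelihood test, and a gene is called when its Benjamini-Hochberg adjusted p over the 15663 genes tested is under 0.05; all 30 genes were tested. In D395A cells, 14 of the 18 sterol enzymes rose against WT (77.8%, where 36.3% of all genes tested were called higher), 1 fell, and the median change was 0.45 against 0.02 over all genes. In KO cells the same arm split, with 6 enzymes higher (33.3%, against 33.6% of all genes) and 8 lower (44.4%, against 32.6%), and a median of 0.05 against 0.01. The fatty acid enzymes fell in KO, 6 of 8 lower (75.0%) and the other 2 not called, with a median of -0.34. In D395A 3 of the 8 fell (37.5%, where 34.0% of all genes were called lower), 1 rose, and the median was -0.06. Calls were common in this series: 66.2% of all genes tested in KO and 70.3% in D395A passed the test in either direction. No member reached an absolute log2 change of 1 against WT, a size that 24.3% and 29.0% of all genes passed, so these are moderate changes.

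**Figure D1:**
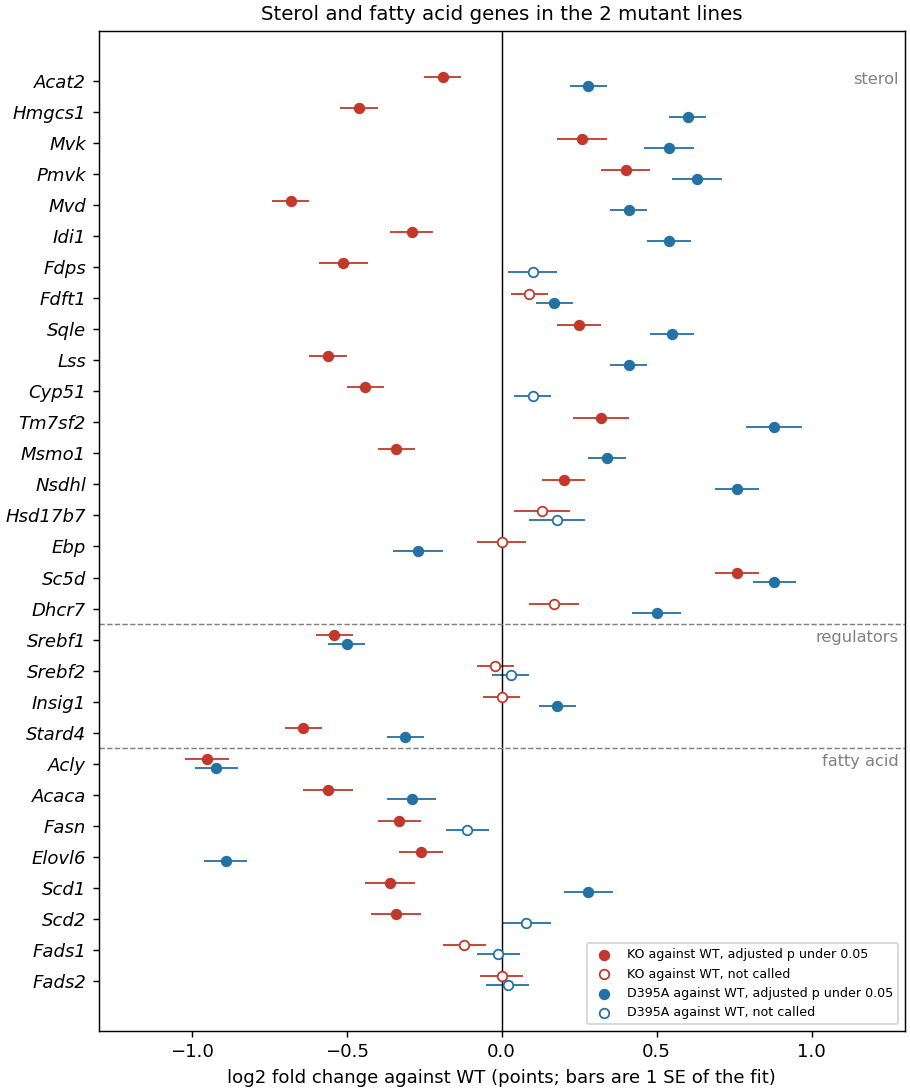
Log2 fold change of each of the 30 genes in KO and in D395A against WT, with bars of 1 SE of the fit. Genes are grouped by role, filled points are called and open points are not. Among sterol enzymes, 14 of 18 are called higher in D395A, where 36.3% of all genes tested are. Their KO values run from -0.68 to 0.76.

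In transcript abundance the fatty acid arm was the larger. Per kilobase of the union of a gene's exons, Scd2 (stearoyl-CoA desaturase) led in WT at 327 RPKM. Acly followed at 163, Scd1 at 143 and Fasn at 99.2 RPKM. By this measure the most abundant sterol enzyme was Hmgcs1 at 59 RPKM, and the least abundant were Hsd17b7 at 5 and Tm7sf2 at 3.66 RPKM. The union can far exceed a gene's longest coding transcript, with 6144 against 2044 bases for Msmo1 and 4403 against 1498 for Tm7sf2. The order between genes therefore depends on the length used. In CPM summed over an arm, the 18 sterol enzymes gave 1758 and 1717 in WT, 1523 and 1608 in KO, with 2275 and 2317 in D395A. Those sums do not overlap between groups, and the KO mean was 90.1% and the D395A mean 132% of WT. The 8 fatty acid enzymes summed to 5556 and 5392 CPM in WT, 3991 and 4306 in KO, with 4768 and 5323 in D395A. Here KO stood at 75.8% of WT, and D395A at 92.2%, with its libraries further apart than those of WT. Such sums weigh the most abundant genes most. The Acly mean, on chromosome 11, went from 861 CPM in WT to 445 in KO and 456 in D395A. That of Scd1 went from 702 to 547 and 853. Values are per RNA, so a change in every cell and a change in the share of cells that express the genes cannot be told apart.

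**Figure D2:**
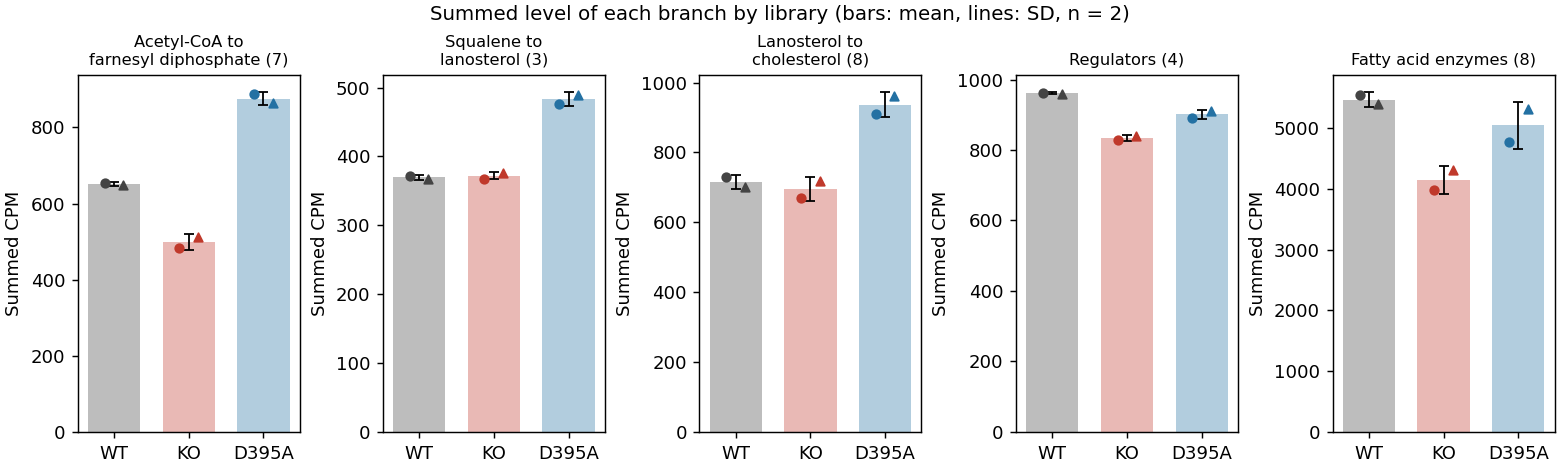
Summed CPM of the genes of each branch, with bars for the mean of 2 libraries, lines for the SD, and points for the libraries (circles replicate 1, triangles replicate 2). The D395A mean lies at 131% to 135% of WT in the 3 sterol branches, while KO is at 76.5% in the mevalonate branch and at 101% and 97% in the squalene and late branches.

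All 7 mevalonate enzymes were called in KO (2 higher and 5 lower, median -0.29), where 66.2% of all genes were called. In D395A 6 of 7 were higher (median 0.54, where 36.3% of all genes were), and 7 of 7 were higher in D395A than in KO (median 0.62, where 26.5% of all genes were called higher). Per-library values of the genes below were chosen after their values were seen, except for Srebf1, Srebf2 and Insig1.

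Hmgcs1 (chr13:119690379-119708260), which condenses acetyl-CoA units into HMG-CoA, stood at 273 and 269 CPM in WT, 193 and 203 in KO, with 408 and 412 in D395A. The 3 groups do not overlap and lie in the order KO, WT, D395A. It fell by 0.46 ± 0.06 in KO (adjusted p = 3.3e-05) and rose by 0.60 ± 0.06 in D395A (adjusted p = 2.5e-06). Mvd (chr8:122433601-122443422), the decarboxylase that yields isopentenyl diphosphate, showed the same order with 65.3 and 61.1 CPM in WT, 39.2 and 39.7 in KO, with 84.8 and 83.6 in D395A. Its changes were -0.68 ± 0.06 in KO (adjusted p = 9.3e-07) and 0.41 ± 0.06 in D395A (adjusted p = 5.7e-05). Mvd lies on chromosome 8, where the median change of all 812 genes tested was -0.48 in KO and -0.35 in D395A. Less that median, Mvd was at -0.20 and 0.76. Idi1, the isomerase of isopentenyl diphosphate, had 33.3 and 36.7 CPM in WT, 27.6 and 29.6 in KO, with 51 and 50.4 in D395A, again KO lowest and D395A highest. Its fall of 0.29 in KO was lost without WT replicate 2 (adjusted p = 0.062).

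Mvk and Pmvk, the kinases that phosphorylate mevalonate in turn, rose in both lines. Mvk stood at 21.5 and 21.6 CPM in WT, 25.6 and 26 in KO, with 32.9 and 29.7 in D395A. Pmvk stood at 16 and 14.5 CPM in WT, 19.8 and 20.5 in KO, with 23.5 and 23.7 in D395A. For both, WT was lowest and D395A highest, with no overlap; Mvk rose by 0.26 and 0.54 and Pmvk by 0.40 and 0.63 in KO and D395A. Without WT replicate 1 the KO call of Mvk was lost (adjusted p = 0.054). Acat2, the thiolase that makes acetoacetyl-CoA, changed by -0.19 in KO and 0.28 in D395A. The Acat2 fall was lost without KO replicate 1 (adjusted p = 0.16) or WT replicate 1 (adjusted p = 0.20). Fdps, which makes farnesyl diphosphate, fell by 0.51 in KO and was at 0.10 ± 0.08 in D395A (adjusted p = 0.23), where its libraries overlap those of WT. Fdps and Acat2 are uncertain, since 91.4% and 65.6% of their transcripts match other loci at 97% identity or more over at least 100 bases, in the pseudogenes Gm43738 and Gm3571 and in Acat3 and Tcp1. Smaller shares match elsewhere for Idi1 (33.3%), Hmgcs1 (16.2%), Elovl6 (13.5%) and Insig1 (7.01%). The matching locus of Hmgcs1, Gm48342, overlaps 12.1% of its exons on the opposite strand. For Idi1, Gm48574 does so over 9.22%. Counts of both genes are uncertain to that extent. Acat3 rose from 0.123 and 0 CPM in WT to 14.5 and 0.663 in KO, with 30.7 and 22.8 in D395A.

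**Figure D3:**
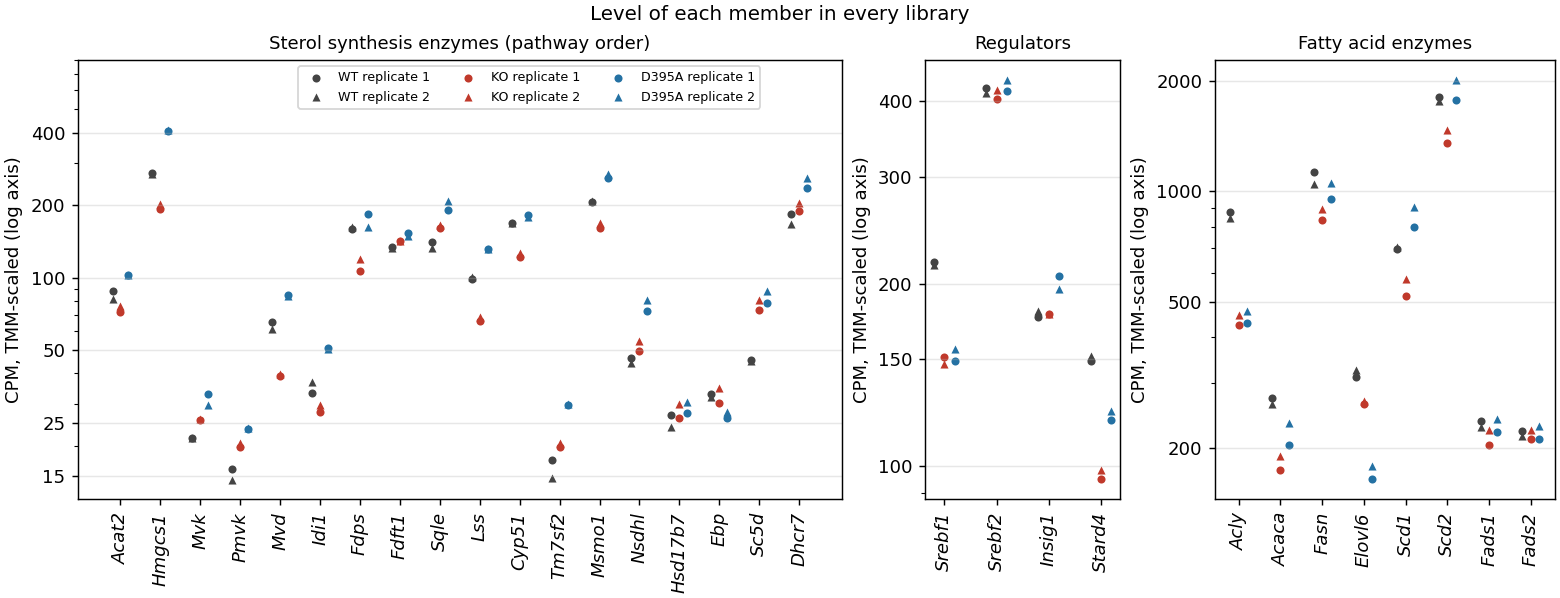
CPM in each library, on a log axis, for all 30 members in 3 panels by role; colours give the group, circles replicate 1 and triangles replicate 2. For Hmgcs1 the KO libraries lie at 193 and 203 CPM, WT at 273 and 269 and D395A at 408 and 412.

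Of the 3 squalene enzymes, Lss, which closes the epoxide into lanosterol, had 98.7 and 101 CPM in WT, 66.1 and 68.5 in KO, with 132 and 132 in D395A. The order was KO, WT, D395A without overlap, with changes of -0.56 ± 0.06 in KO (adjusted p = 2.9e-06) and 0.41 ± 0.06 in D395A (adjusted p = 4e-05). Sqle, the epoxidase that precedes it and a rate-setting step, instead rose in both lines, by 0.25 in KO and 0.55 in D395A, from 140 and 133 CPM to 160 and 165 and to 191 and 209. The KO rise of Sqle was lost without WT replicate 2 (adjusted p = 0.094). Fdft1, squalene synthase, was at 0.09 ± 0.06 in KO (adjusted p = 0.20) and rose by 0.17 in D395A. That call was lost without either WT library (at 0.17 each) and without chromosomes 8, 11 and Y (at 0.11, adjusted p = 0.13). Fdft1 shares 54.7% of its transcript with Gm6781 and Ctsb. Of its exons, 18.3% overlap Ctsb on the opposite strand, so these shares are not independent. Its counts are therefore uncertain.

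Of the 8 enzymes past lanosterol, 3 were higher and 2 lower in KO (median 0.15), and 5 were higher and 1 lower in D395A (median 0.42). The KO shares of 37.5% and 25% lie near the 33.6% and 32.6% of all genes, and the D395A share higher was 62.5%, against 36.3%. Sc5d, the lathosterol desaturase, had the largest rise of all members in KO. It stood at 45.7 and 45.1 CPM in WT, 73.5 and 80.8 in KO, with 78.8 and 87.8 in D395A, a rise of 0.76 ± 0.07 (adjusted p = 1.1e-06) and 0.88 ± 0.07 (adjusted p = 3e-07). Both mutant lines lay above WT and overlapped each other. Nsdhl, a dehydrogenase in the removal of the sterol's methyl groups, rose by 0.76 ± 0.07 in D395A, from 46.5 and 44.2 CPM to 72.9 and 80.5. In KO its 49.5 and 54.7 CPM gave a rise of 0.20. That call was lost without KO replicate 2 (at 0.13), WT replicate 1 (at 0.24) or WT replicate 2 (at 0.16). It was also lost with DESeq2 (adjusted p = 0.055) and without chromosomes 8, 11 and Y (at 0.14, adjusted p = 0.11). Tm7sf2, a sterol C14 reductase, rose by 0.32 in KO and 0.88 in D395A. Its 17.5 and 14.7 CPM in WT became 19.8 and 20.6 in KO, with 29.5 and 29.9 in D395A, and its KO rise was lost without WT replicate 2 (adjusted p = 0.10). Dhcr7, which makes the final reduction in the branch through Sc5d, rose by 0.50 in D395A and was at 0.17 ± 0.08 in KO (adjusted p = 0.071).

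Cyp51, the lanosterol demethylase, had 169 and 168 CPM in WT, 122 and 126 in KO, with 182 and 178 in D395A. It fell by 0.44 ± 0.06 in KO (adjusted p = 2.9e-05) and was at 0.10 in D395A (adjusted p = 0.17). Msmo1, the methylsterol oxidase, fell by 0.34 in KO and rose by 0.34 in D395A, with 207 and 208, 160 and 168, and 259 and 268 CPM in WT, KO and D395A. Its KO value became 0.14 when the median of chromosome 8, where it lies, was taken away. Ebp, the sterol isomerase, was the only sterol enzyme called lower in D395A, by 0.27, and that call was lost without D395A replicate 1 (adjusted p = 0.057) or WT replicate 1 (adjusted p = 0.072). Hsd17b7, the ketosteroid reductase, was not called in any comparison (0.13 in KO and 0.18 in D395A).

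The sequences just upstream of Hmgcs1, Mvk, Mvd, Lss and Nsdhl are printed as examples from the sterol arm. Sc5d and Tm7sf2, which rose more in D395A, are not printed. SREBPs are known to act next to NF-Y, which binds CCAAT, and Sp1, which binds GGGCGG. Windows of 250 bases before the start, from RefSeq on GRCm38.p6, were found for 23 of the 30 genes and read on both strands. No window was given for Fdps, Fdft1, Sqle, Stard4, Scd1, Scd2 and Fads1. CCAAT was found in 14 of 15 sterol enzymes (all but Acat2), 3 of 3 regulators and 1 of 5 fatty acid enzymes, and in 33.8% of all 32851 windows. Some genes have several windows, and counted by window CCAAT was in 19 of 28 member windows. GGGCGG was found in 14 of 15, 3 of 3 and 2 of 5, and in 32.7% of all windows, with 21 of 28 member windows. The sterol element form TCACNCCAC was in 1.05% of all windows and among members only in Hmgcs1, 137 bases before its start. For Hmgcs1, Nsdhl, Sc5d and a window of Srebf1, the bases just past the start matched no GENCODE M21 transcript of the gene. Starts there are less certain, and so is the distance of 137 bases. CACGTG, an E-box that SREBP1 can bind, was in Hsd17b7, Sc5d, Dhcr7 and Insig1 in 4 of 28 member windows and in 6.02% of all windows. These are matches of letters, read after the values were known and from the reference strain, not from these cells. Capitals mark CCAAT (or ATTGG, its form on the other strand) and, in Hmgcs1, TCACNCCAC.
Hmgcs1 (chr13:119690201-119690350, plus strand): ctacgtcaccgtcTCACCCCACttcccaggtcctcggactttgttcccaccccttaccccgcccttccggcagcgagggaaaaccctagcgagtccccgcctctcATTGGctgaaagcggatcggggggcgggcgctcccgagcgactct
Mvk (chr5:114444119-114444268, plus strand): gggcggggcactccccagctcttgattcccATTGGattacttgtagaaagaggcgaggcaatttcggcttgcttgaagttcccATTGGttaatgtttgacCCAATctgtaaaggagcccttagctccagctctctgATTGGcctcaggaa
Mvd (chr8:122443423-122443572, minus strand): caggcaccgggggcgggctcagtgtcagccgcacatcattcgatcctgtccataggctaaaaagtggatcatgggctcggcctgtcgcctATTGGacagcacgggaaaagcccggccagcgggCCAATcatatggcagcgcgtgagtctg
Lss (chr10:76531455-76531604, plus strand): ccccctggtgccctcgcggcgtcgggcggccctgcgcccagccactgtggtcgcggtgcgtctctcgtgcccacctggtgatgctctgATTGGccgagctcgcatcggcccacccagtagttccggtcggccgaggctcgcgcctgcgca
Nsdhl (chrX:72918371-72918520, plus strand): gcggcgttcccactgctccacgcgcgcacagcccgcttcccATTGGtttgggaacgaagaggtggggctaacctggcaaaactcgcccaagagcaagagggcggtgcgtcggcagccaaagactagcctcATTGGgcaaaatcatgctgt

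Mvk, which rose in both lines, carries 4 CCAAT matches in its printed stretch, and Mvd, which fell in KO and rose in D395A, carries 2. Both carry the match, as did 14 of the 15 sterol enzymes with a window. Any part of it in these changes was not tested.

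Among the regulators, the RNA of Srebf1 fell in both lines and that of Srebf2 was not called. Srebf2 (chr15:82147181-82205379) stood at 421 and 413 CPM in WT, 404 and 418 in KO, with 417 and 434 in D395A. The groups overlap, and the changes were -0.02 ± 0.06 in KO (adjusted p = 0.78) and 0.03 ± 0.06 in D395A (adjusted p = 0.70). Srebf1 (chr11:60199089-60222581) stood at 217 and 215 CPM in WT, 151 and 147 in KO, with 149 and 156 in D395A. Both mutant lines lay below WT and overlapped each other, with changes of -0.54 ± 0.06 (adjusted p = 5.6e-06) and -0.50 ± 0.06 (adjusted p = 1e-05). Srebf1 lies on chromosome 11, whose 1302 tested genes had medians of -0.42 and -0.49, and less that median it was at -0.12 and -0.01. Per length, Srebf2 exceeded Srebf1 by a ratio of 1.53 and 1.51 in the WT libraries, 2.11 and 2.24 in KO, with 2.20 and 2.18 in D395A. These are RNA levels of the precursors, and cleavage of the proteins was not measured.

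Insig1, the retention factor and itself a well-known SREBP target, had 176 and 180 CPM in WT, 178 and 178 in KO, with 206 and 196 in D395A. KO and WT overlap, and D395A lies above both. The D395A call of 0.18 was lost without either WT library (at 0.15 and 0.19) and without chromosomes 8, 11 and Y (at 0.11, adjusted p = 0.14). Stard4, which carries cholesterol between membranes, fell in both lines, by 0.64 ± 0.06 in KO (adjusted p = 1e-06) and 0.31 ± 0.06 in D395A (adjusted p = 0.00052). Its levels were 149 and 152 CPM in WT, 94.9 and 98.5 in KO, with 119 and 123 in D395A, with no overlap. Of these 4 genes of sterol sensing and transport, 2 were lower in KO (50%, against 32.6% of all genes). In D395A 1 was higher (25%, against 36.3%) and 2 were lower (50%, against 34.0%). With only 4 genes these shares do not set the list apart.

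Acly (chr11:100476353-100528000), which makes the cytosolic acetyl-CoA, fell in both lines. Its 876 and 845 CPM in WT became 431 and 460 in KO, with 439 and 472 in D395A. The mutant lines overlap and lie far under WT, with changes of -0.95 ± 0.07 (adjusted p = 9.3e-08) and -0.92 ± 0.07 (adjusted p = 1.1e-07). Acaca, the acetyl-CoA carboxylase that makes malonyl-CoA, fell by 0.56 in KO and 0.29 in D395A. Its levels were 274 and 263 CPM in WT, 174 and 190 in KO, with 204 and 234 in D395A, and its D395A call was lost without WT replicate 1 (adjusted p = 0.061). Of its transcript 64.3% matches the pseudogene Gm5182, which makes its count uncertain. Fasn, the synthase that builds palmitate, fell by 0.33 in KO, a call lost without WT replicate 1 (adjusted p = 0.054). It was at -0.11 ± 0.07 in D395A (adjusted p = 0.19), where its libraries overlap those of WT.

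Acly, Acaca and Fasn all lie on chromosome 11. Less the chromosome median, Acly was at -0.53 in KO and -0.43 in D395A, Acaca at -0.14 and 0.20, and Fasn at 0.09 and 0.38. Of the 5 fatty acid enzymes on other chromosomes, 3 fell in KO (where 29.1% of the genes off chromosomes 8 and 11 were called lower), with a median of -0.26, and 1 fell and 1 rose in D395A. The sterol arm has 2 members on chromosome 8 and none on 11. Of its 16 others, 12 rose in D395A, where 39.1% of the genes off those chromosomes did, with a median of 0.52. The part of the chromosome shift in the change of any member was not tested.

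**Figure D4:**
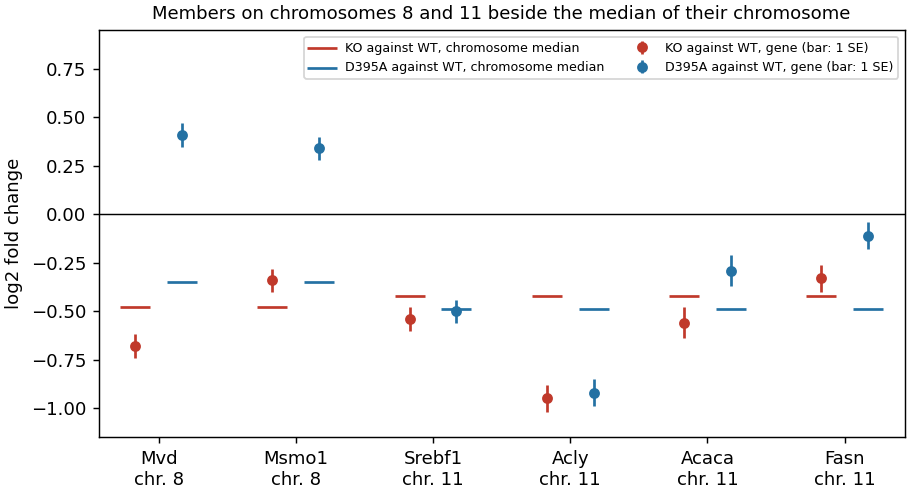
Log2 fold change against WT (points, with bars of 1 SE) of the 6 members on chromosomes 8 and 11, beside the median of all genes tested on that chromosome (horizontal lines), in KO and D395A. Acly lies under its chromosome's medians of -0.42 and -0.49, and Srebf1 close to them.

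Elovl6 (chr3:129532355-129638495), which elongates palmitate, differed most between the lines in the falling direction. Its 312 and 326 CPM in WT became 264 and 269 in KO, with 164 and 178 in D395A, in 3 groups without overlap. It fell by 0.26 ± 0.07 in KO and 0.89 ± 0.07 in D395A (adjusted p = 1.1e-07), and the KO call was lost without WT replicate 2 (adjusted p = 0.073). The desaturases Scd1 and Scd2, which make monounsaturated fatty acids, fell together in KO, by 0.36 and 0.34. In D395A Scd1 rose by 0.28, from 697 and 707 CPM in WT to 800 and 905, and Scd2 was at 0.08 ± 0.08 (adjusted p = 0.35). The Scd1 rise was lost without WT replicate 1 (adjusted p = 0.076) or replicate 2 (adjusted p = 0.061). Scd1 lies on chromosome 19, where the median change was 0.17 in KO and 0.28 in D395A, and less that median it was at -0.53 and 0.00. Scd2, on the same chromosome, was then at -0.51 and -0.20. Per length, Scd2 exceeded Scd1 by a ratio of 2.33 and 2.23 in WT, 2.34 and 2.29 in KO, with 1.98 and 1.99 in D395A. Fads1 and Fads2, the desaturases of polyunsaturated fatty acids, were not called in any comparison, with values from -0.12 to 0.02 against WT.

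The upstream stretches of Fasn and Acly are shown as the fatty acid counterparts, with the same capitals. Fasn is the only 1 of the 5 fatty acid enzymes with a window in which CCAAT was found, and Acly has GGGCGG but no CCAAT. Any part of these matches in the changes was not tested.
Fasn (chr11:120824548-120824697, minus strand): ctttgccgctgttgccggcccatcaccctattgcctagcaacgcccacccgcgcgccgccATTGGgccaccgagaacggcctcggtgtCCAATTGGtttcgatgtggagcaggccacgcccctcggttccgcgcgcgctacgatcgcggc
Acly (chr11:100528001-100528150, minus strand): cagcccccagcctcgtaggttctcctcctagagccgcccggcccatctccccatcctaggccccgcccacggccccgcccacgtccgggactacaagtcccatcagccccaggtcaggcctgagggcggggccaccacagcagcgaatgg

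Compared directly, D395A exceeded KO in 14 of the 18 sterol enzymes (77.8%) and was lower in 1, where 26.5% of all genes were higher and 23.8% lower, and 50.4% were called in either direction. The sterol median was 0.51, against 0.04 over all genes, and 12 of the 16 off chromosome 8 were higher (26.8% of genes off chromosomes 8 and 11). Hmgcs1 and Mvd differed by more than 1 on the log2 scale, at 1.05 ± 0.06 (adjusted p = 3.2e-08) and 1.09 ± 0.06 (adjusted p = 2.5e-08), a size that 15.9% of all genes passed in either direction. Acat2, Hmgcs1, Mvd, Idi1, Lss, Msmo1 and Scd1, 7 of the 30 members, were lower in KO, higher in D395A and higher in D395A than in KO, as were 1.91% of all genes. Lss differed by 0.97, Idi1 by 0.82, Msmo1 by 0.69, Fdps by 0.62 and Cyp51 by 0.54. Sc5d, Fdft1 and Hsd17b7 were not called, at 0.11, 0.08 and 0.05. The call of Pmvk (0.23) held in 8 of 15 alternative fits. It was lost with DESeq2 (adjusted p = 0.15), no filter on low counts (adjusted p = 0.079) and only the 4 libraries compared (adjusted p = 0.07). It was also lost when any 1 of the 4 KO and D395A libraries was left out, with changes from 0.19 to 0.25. That of Mvk (0.27) was lost without KO or D395A replicate 1, at 0.25 and 0.20. Ebp, the enzyme called lower (-0.27), was not called without D395A replicate 1 (adjusted p = 0.073) or KO replicate 2 (adjusted p = 0.19). Of the 8 fatty acid enzymes 4 were higher in D395A than in KO and 1, Elovl6, was lower by 0.63 ± 0.07 (adjusted p = 5.7e-06), with a median of 0.16. The higher calls of Fasn (0.22) and Acaca (0.27) were lost without D395A replicate 2 (at 0.14 and 0.16) or KO replicate 1 (at 0.16 and 0.20). That of Fasn was also lost without either WT library (at 0.21) and with only the 4 libraries compared (at 0.18, adjusted p = 0.092).

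In the KO group, replicate 2 exceeded replicate 1 in 18 of 18 sterol and 8 of 8 fatty acid enzymes, where 52.9% of all genes did so, and in D395A in 12 of 18 and 8 of 8, where 55.3% did. The D395A sterol count is near that share, with a median gap of 0.01 on the log2 scale. In WT, replicate 2 was the higher in 5 of 18 and 2 of 8, where 48.8% of all genes were. Of the 4 regulators it was the higher for 3 in KO, 3 in D395A and 2 in WT.

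Other genes of the pathways, from lists taken with earlier results known, follow. The background over all genes was 33.6% higher and 32.6% lower in KO, and 36.3% higher and 34.0% lower in D395A. Of 6 further sterol synthesis genes tested, 3 were lower and 3 not called in KO, and 1 was higher and 3 lower in D395A. Lbr, a lamin receptor that is also a sterol C14 reductase, fell by 0.51 and 0.37. Tm7sf2 has the same activity and rose. Per length, Lbr exceeded Tm7sf2 by a ratio of 15.6 and 18.7 in WT, 9.51 and 9.62 in KO, with 7.19 and 7.13 in D395A. The size of these ratios depends on the exon length used, but their order between groups does not.

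Of 10 further genes of SREBP control, 4 were higher and 4 lower in KO (40% each), and 3 higher (30%) and 5 lower (50%) in D395A. Scap, which escorts SREBPs to be cleaved, rose by 0.84 ± 0.08 and 1.11 ± 0.08. Its 48.8 and 48.2 CPM in WT became 84.2 and 88.9 in KO, with 96.9 and 112 in D395A, and 13.23% of its exons overlap an antisense gene. Rnf145, a ligase on chromosome 11 that acts on this machinery, fell by 1.14 in KO, and Erlin1 fell by 0.75 in D395A. Of 23 genes of sterol uptake, storage and export, 14 were higher (60.9%) and 5 lower (21.7%) in KO, and 8 higher (34.8%) and 5 lower (21.7%) in D395A. Abca1, the exporter of cholesterol, went from 30.4 and 27.9 CPM in WT to 17.1 and 16.1 in KO, with 104 and 123 in D395A. It changed by -0.81 ± 0.10 and 1.97 ± 0.09, so its groups lie in the order KO, WT, D395A. Soat2, which esterifies cholesterol, fell by 2.21 and 2.24 from 3.79 and 3.53 CPM, and Nr1h3, an oxysterol receptor, rose by 2.57 in KO from 0.172 and 0.303 CPM.

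Of 12 genes that use isoprenoids, 2 were higher and 2 lower in KO (16.7% each) and 4 higher (33.3%) and 3 lower (25%) in D395A, with Pdss2, of coenzyme Q synthesis, higher by 0.72 and 0.62. Coq2, of the same synthesis, rose by 0.77 in D395A, and Icmt, which methylates prenylated proteins, fell by 0.86 in KO. Of 23 further fatty acid genes, 9 were higher (39.1%) and 5 lower (21.7%) in KO, and 7 higher (30.4%) and 9 lower (39.1%) in D395A, near the background. Elovl4, an elongase of very long chains, fell by 2.20 in KO, and Fads6, on chromosome 11, fell by 2.46 in D395A. Scd4 had 3 counts over both WT libraries, and the ratio to them was 11.7 (exact 95% interval 3.68 to 60) in KO and 39.6 (13.1 to 196) in D395A, an interval that covers counting error only. Of 23 genes of lipid assembly, 8 were higher and 8 lower in KO (34.8% each), and 5 higher (21.7%) and 9 lower (39.1%) in D395A. Acsl6, an acyl-CoA synthetase on chromosome 11, fell by 3.26 and 3.39, Lpin3, a phosphatidate phosphatase, fell by 1.19 in KO, and Acsl1, on chromosome 8, fell by 1.45 in D395A.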

How the data were processed

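RNA was measured in 6 libraries of E14TG2a cells, 2 each of WT, KO and D395A, grouped by their labelled genotype. Per the submitters' processing notes, reads were trimmed with Trimmomatic 0.36, aligned to mm10 with STAR 2.7 and counted with HTSeq 0.11.2, and the authors deposited the raw counts per gene. The HTSeq strand option is not given in the sources used here, nor is the annotation, so counts of genes with antisense exons are uncertain. The summary lines held 29% to 44.2% of each library's total and were left out of library sizes and tests.

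The deposited counts were fitted with edgeR 4.0.16 in R 4.3.3: filterByExpr (15663 of 24984 genes kept), TMM scaling, and the quasi-likelihood F test with all 6 libraries in 1 model and no covariate, which leaves 3 residual degrees of freedom. P-values were adjusted by Benjamini-Hochberg over all genes tested, with 0.05 as the threshold, and the SE is the absolute log2 change divided by the square root of F. Levels are TMM-scaled CPM, or RPKM over the union of exons in GENCODE M21 (GRCm38). Between the 2 libraries of a group, chi-square per degree of freedom was 3.27 in WT, 6.74 in KO and 11.7 in D395A.

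The members and all lists were chosen with earlier results of these data known, and so were the motifs and the promoters printed. All 30 members are named. Of each further pathway list, the 2 called genes with the largest absolute log2 change in each comparison with WT are named, except 1 that is not reported here. Alternatives were DESeq2 1.42.0, limma-voom (limma 3.58.1), other scalings and filters, a robust fit, a replicate block, 4 libraries only, no chromosomes 8, 11 and Y, chromosome medians taken away, and each library left out in turn.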

Additional observations from a re-analysis of the deposited data

Results flagged for a closer look

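For 7 members, KO and D395A were called in opposite directions against WT by edgeR's quasi-likelihood test. The difference between the lines was called too, which follows in large part from the opposite calls and is not a separate result. Of all 15663 genes tested, 1.91% were called in the same way (lower in KO, higher in D395A, and higher in D395A than in KO). D395A exceeded KO by 1.09 on the log2 scale for Mvd, 1.05 for Hmgcs1, 0.97 for Lss, 0.82 for Idi1, 0.69 for Msmo1, 0.64 for Scd1 and 0.48 for Acat2. In each, both D395A libraries lay above both WT libraries and both KO libraries below them. The 7 genes were picked by these calls, so this separation is no further support. Leaving out 1 library ended the KO call of Acat2 (adjusted p = 0.16 without KO replicate 1 and 0.20 without WT replicate 1) and of Idi1 (0.062 without WT replicate 2), and the D395A call of Scd1 (0.076 without WT replicate 1 and 0.061 without WT replicate 2). The difference between the lines, which rests on the same opposite changes, stayed called in every alternative fit that could be made for the 7 genes. Less the median of its chromosome, Msmo1 in KO was at 0.14 and Scd1 in D395A at 0.00, so these 2 were then no longer opposite. Mvd, also on chromosome 8, was at -0.20 and 0.76. Further, Acat2 shares sequence with Acat3.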

How the results depend on the processing

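Over the alternative fits, 1271 of 1332 member values kept their side of the threshold, with no called value reversed; 48 calls were lost (38 of them when 1 library was left out) and 13 were gained. A further count within the kept values is 37 that were uncalled in both fits and changed sign, none beyond 0.1 on the log2 scale. Of the D395A calls against WT, 13 of 14 higher sterol enzymes were called in every fit, and 12 of 14 against KO. In KO, 6 of 8 lower and 2 of 6 higher sterol enzymes and 4 of 6 lower fatty acid enzymes were. With 1 library left out, the sterol enzymes called ranged from 10 to 15 in KO (higher: 3, without WT replicate 2, to 7), 13 to 16 in D395A and 13 to 15 between the lines. The fatty acid enzymes called were 4 in D395A, with a range of 2 (without WT replicate 1) to 5, and 5 between the lines, with a range of 3 (without D395A replicate 2 or KO replicate 1) to 6. Without chromosomes 8, 11 and Y, which leaves 5 of them, 2 were called in D395A and 3 between the lines. Over all genes that fit shifted log2 changes against WT by a median of -0.06 in KO and -0.07 in D395A, which bears on small rises. With the median of the chromosome taken away, the sign of a called change turned for Msmo1 (0.14) and Fasn (0.09) in KO and for Fdft1 (-0.02) and Acaca (0.20) in D395A. Among uncalled values it turned for Hsd17b7 in KO, for Fdps, Srebf2, Fasn, Scd2 and Fads2 in D395A, and for Fads2 between the lines. Over all genes tested, deviations of same-numbered libraries correlated at -0.00257 (WT and D395A), -0.00783 (WT and KO) and -0.123 (D395A and KO). These values cannot decide whether same-numbered libraries were prepared together, which the labels do not say. With the replicate number as a block, 10220 genes were called in KO, 10843 in D395A and 7832 between the lines, and the counts of sterol and fatty acid enzymes called stayed the same. With 2 libraries per group, small changes such as those of Insig1 and Fdft1 are at the limit of the design.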
